A study of Mus musculus with 7 samples.

Results

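Mature miRNAs of 2 hairpins were followed through mouse testis before culture, after it and in the adult: both arms of the miR-202 hairpin, mmu-miR-202-5p and mmu-miR-202-3p, and mmu-miR-375-3p. They were picked by name as 3 of the 331 miRNAs that the authors listed, with their values in these libraries already known, and miR-375-3p had also been singled out by the study on the same libraries. Their levels are therefore given as a description, selected on the measured values, and carry no test. For miR-202 the ratio of the arms was taken in each library as well.

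Small RNAs were sequenced from testis tissue of CD1 mice, an outbred strain, in 7 libraries, with 1 library for each condition and no replicate. T6 and T10 were testes of 6.5 and 10.5 days post-partum (dpp) that were not cultured, labelled as 6 and 10 days of age, and TAD was adult testis of 2 months, also without culture. The other 4 libraries were explants of these prepuberal ages after 12 days of culture on agarose at the gas-liquid interface, at the temperature and atmosphere shared by all cultures. T6-12K and T10-12K had received KSR, a serum replacement, and T6-12A and T10-12A had received AlbuMAX I, a lipid-rich bovine albumin. The labels give no genetic change or further agent for any condition. By the study's methods an explant was an entire testis at 6.5 dpp but only a part of one at 10.5 dpp. The outer coat, the tunica albuginea, was removed before culture. As the tissue was not separated into cell types, germ cells and the somatic cells around them were measured together. Fewer cells of a type and less RNA per cell therefore cannot be told apart. The study's methods have RNA isolated from 2 explants homogenized together, so a cultured library may pool explants, and the number of animals behind a library was not given.

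A miRNA hairpin is cut by Drosha and Dicer into a duplex whose strands are called the 5p and 3p arms. Usually a single strand is kept by an Argonaute protein and pairs with target mRNAs mainly through its seed, bases 2 to 8, whereas the other strand is degraded. The ratio of the arms thus describes which product of a shared precursor was recovered. miR-202 is known for its enrichment in the gonads of vertebrates, where it has been described in the supporting Sertoli cells and in germ cells. miR-375 is best known from the pancreatic islet, where it restrains insulin release, and it is also found in other endocrine and epithelial tissues.

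The miR-202 sequences are shown because the arm ratio compares these strands, and because the 3p arm resembles the let-7 family. Sequences were taken from RefSeq on GRCm38.p6 and are written 5′ to 3′. In the mature miRNAs the capitals mark the seed, and in the hairpin they mark both arms, the 5p arm from base 9 to 29 and the 3p arm from base 45 to 66, with a loop of 15 bases between them.
Mir202 hairpin: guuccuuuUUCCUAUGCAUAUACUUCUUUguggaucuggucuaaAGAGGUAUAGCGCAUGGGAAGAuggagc
miR-202-5p: uUCCUAUGcauauacuucuuu
miR-202-3p: aGAGGUAUagcgcaugggaaga
let-7a-5p: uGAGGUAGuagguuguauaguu

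Counted from 1 at the 5′ end, miR-202-3p and let-7a-5p differed within the seed by U8G only, with the base of miR-202-3p given first. Their bases 2 to 7, GAGGUA, were the same, and 9 listed miRNAs, all of the let-7 family in its wide sense with miR-98-5p, carried these 6 bases as well. Among the 1674 different mature sequences of the RefSeq table, 13 had them at this position, or 0.777%. Over the full seed, none of the 288 listed miRNAs that were matched by name to that table shared the bases of miR-202-3p, nor those of miR-202-5p.

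On GRCm38, the build called mm10 in the submitters' notes, the Mir202 hairpin lies on the minus strand at chr7:139957689-139957760. The 5p arm occupies chr7:139957732-139957752 and the 3p arm chr7:139957695-139957716. The GENCODE annotation places the hairpin in exon 2 of Gm2044, a long non-coding RNA of the same strand, and Gm16201, a processed transcript of the opposite strand, overlaps it. The nearest protein-coding genes were Utf1, which encodes a transcription factor of undifferentiated cells, at 12577 bp, and 6430531B16Rik at 14543 bp. The Mir375 hairpin lies on the minus strand at chr1:74900658-74900721, outside other annotated genes. Its nearest neighbours of known product were Cfap65, for a protein of the sperm flagellum, at 1350 bp, and Cryba2, for a lens crystallin, at 7515 bp.

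The deposited values were whole multiples of 1 number per library, so the reads behind each value could be estimated, and levels are given as CPM, reads for every 1000000 that fell on any listed miRNA. The listed miRNAs held 7075528 to 13397407 reads in the libraries other than TAD. In T6, T10 and T6-12A this estimate was above the sequencing depth that the study states, and the cause was not tested. The counting intervals rest on these estimates. TAD held 1628770 reads, and 64 of the 331 miRNAs were listed at 0 there, against 6 to 21 in the others. Intervals cover 95% of the counting error only, not the spread between animals or cultures. T6-12K stood apart in the epithelial miRNAs miR-141-3p, at 126 CPM against 0 to 15.3 CPM elsewhere, and miR-205-5p, at 20.9 CPM against 0 to 2.16 CPM. The other measured epithelial miRNAs were each lower in T6-12K than in the other cultures. There miR-200a-3p, miR-200b-3p, miR-429-3p and miR-203-3p were at 13.3, 48.3, 97.1 and 51.1 CPM. T6-12K also stood apart outside this list. Its log2 ratios to T6 were 2.71 for miR-10a-5p and 2.12 for miR-196b-5p, where T6-12A was at -0.07 and -2.03. The tissue was checked with miRNAs typical of testis. The miR-34 and miR-449 family, typical of meiotic and later germ cells, was read in every library, with a summed level of 99.8 CPM in T6 and 229 CPM in T10, 646 to 2048 CPM in the cultured libraries and 25937 CPM in TAD. The X-linked testis cluster summed to 51408 and 93332 CPM in T6 and T10, to 18462 to 67037 CPM in culture and to 133668 CPM in TAD.

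miR-202-5p, the major arm, was read 2306 times in T6 and 3050 times in T10, and its levels were 173 CPM and 228 CPM. With KSR it had 856 and 961 reads, or 86.2 CPM in T6-12K and 136 CPM in T10-12K. With AlbuMAX I it had 1296 and 1176 reads, or 120 CPM in T6-12A and 139 CPM in T10-12A. TAD had 208 reads, or 128 CPM. In CPM the uncultured prepuberal testes were thus highest, T6-12K was lowest, and the other cultured libraries and TAD lay close together. The order depended on the scaling: TAD was lowest with median-of-ratios, with the trimmed mean of M-values and in the values as deposited, and its log2 ratio to T6-12K turned from 0.57 to -0.25, -0.50 and -0.42. In the order of levels, the counting intervals of T10-12A, T10-12K and TAD overlapped, and so did those of TAD and T6-12A. The highest level was 2.64 times the lowest. Of the 252 miRNAs read in every library, 205 had a range at least as wide, and the median range was 4.87-fold, so miR-202-5p was among the steadier miRNAs of the table.

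miR-202-3p, the minor arm, had 170 reads in T6 and 88 in T10. Cultures with KSR had 75 (T6-12K) and 83 (T10-12K) reads, those with AlbuMAX I 165 (T6-12A) and 149 (T10-12A), and TAD had 52. From lowest to highest, its level was 6.57 CPM in T10, 7.55 CPM in T6-12K, 11.7 CPM in T10-12K, 12.7 CPM in T6, 15.3 CPM in T6-12A, 17.6 CPM in T10-12A and 31.9 CPM in TAD. TAD was highest, with an interval of 24.3 to 41.9 CPM that overlapped none of the others, and the lower neighbours in the order of levels overlapped or met at their bounds. The range was 4.86-fold, close to the median of 4.87, and 127 of the 252 miRNAs had one at least as wide. TAD was also highest with median-of-ratios, with the trimmed mean of M-values and in the values as deposited, while its number of reads, not adjusted for depth, was the lowest.

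miR-375-3p had 1334 reads in T6 and 1161 in T10, or 99.8 and 86.7 CPM. After culture from 6.5 dpp it had 2087 reads with KSR and 4912 with AlbuMAX I, or 210 and 455 CPM, and after culture from 10.5 dpp 5507 and 4666 reads, or 778 and 552 CPM. TAD had 14684 reads, or 9015 CPM. All cultured libraries were above both uncultured prepuberal testes and below TAD, and no neighbouring intervals overlapped in the order of levels. By level it ranked 118 and 129 of 331 in T6 and T10, 71, 61, 47 and 53 in culture, and 13 in TAD. Its highest level was 104 times its lowest, and 7 of the 252 miRNAs, itself included, had a range at least as wide. Unlike the level of miR-202-3p, its count in reads was also highest in TAD, the shallowest library.

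**Figure D1:**
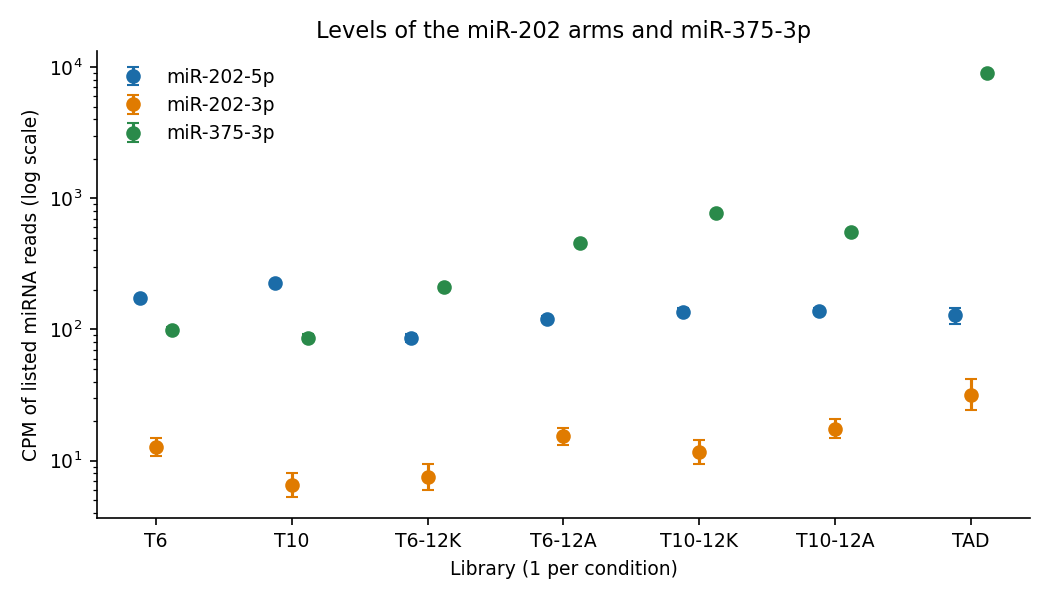
Levels of miR-202-5p, miR-202-3p and miR-375-3p in CPM of listed miRNA reads, on a log scale, for each of the 7 libraries. Points are single libraries and bars are 95% counting intervals; miR-375-3p goes from 86.7 CPM in T10 to 9015 CPM in TAD, whereas miR-202-5p stays between 86.2 and 228 CPM.

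The comparison of T10 with T6 addressed the change in the testis from 6.5 to 10.5 dpp, when meiosis begins. None of the 3 miRNAs differed by 2-fold or more either way, as 14.8% of all listed miRNAs did. miR-202-5p was higher in T10 by 0.40 on the log2 scale (counting interval 0.32 to 0.48), while miR-202-3p was lower, with a log2 ratio of -0.95 (-1.32 to -0.58). The arms of 1 hairpin therefore lay on opposite sides of the median of all miRNAs, -0.05. For miR-202-3p, 14 of the 331 miRNAs had a smaller ratio. miR-375-3p was slightly lower in T10, at -0.20 (-0.32 to -0.09).

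Each culture was compared with its starting testis, the uncultured library of its starting age. The cultured tissue was 12 days older, and no uncultured testis of that later age was sequenced. Changes due to culture and those of normal development over the 12 days therefore cannot be told apart. miR-375-3p was higher in every culture than in its starting testis. From 6.5 dpp its log2 ratio was 1.07 (0.97 to 1.17) with KSR and 2.19 (2.10 to 2.28) with AlbuMAX I. From 10.5 dpp it was 3.17 (3.08 to 3.26) with KSR and 2.67 (2.58 to 2.76) with AlbuMAX I. It was at least 2-fold higher in each of the 4 cultures, as were 10.9% of all miRNAs for T6-12K, 12.4% for T6-12A, 8.16% for T10-12K and 10.6% for T10-12A. Both cultures of an age were set against the same library, so these ratios are not independent of each other.

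miR-202-5p was lower in every culture than in its starting testis, by log2 ratios of -1.0, -0.52, -0.75 and -0.71 in T6-12K, T6-12A, T10-12K and T10-12A. Most listed miRNAs did the same, and the medians of all miRNAs in these comparisons were -1.18, -0.63, -0.75 and -0.78. Relative to these medians, miR-202-5p was higher by 0.18, 0.10, 0.00 and 0.07, so its lower CPM was that of the table as a whole. It was at least 2-fold lower in T6-12K, lying at that threshold, and 56.8% of all miRNAs were as well. All cultured libraries were below both T6 and T10 for miR-202-5p, as they were for 57.7% of all miRNAs. With the trimmed mean of M-values as the scaling, the ratio in T6-12K was 0.01, and the median of all miRNAs shifted to -0.18. With this scaling or median-of-ratios, miR-202-5p was not below T6 and T10 in every culture.

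miR-202-3p lay below its starting testis at 6.5 dpp and above it at 10.5 dpp in KSR. Its log2 ratio was -0.75 (-1.14 to -0.36) in T6-12K and 0.84 (0.40 to 1.27) in T10-12K. With AlbuMAX I it was 0.27 (-0.04 to 0.57) in T6-12A, an interval that includes no change, and 1.42 (1.04 to 1.80) in T10-12A. Under median-of-ratios scaling both KSR ratios were positive, 0.23 and 1.39. Of the 3 miRNAs, miR-202-3p and miR-375-3p were at least 2-fold higher in T10-12A, as were 10.6% of all miRNAs. In reads not adjusted for depth miR-202-3p was at 0.76 there and did not pass. Relative to the median of all miRNAs, every ratio of miR-202-3p was positive, with differences of 0.43, 0.89, 1.59 and 2.20 in T6-12K, T6-12A, T10-12K and T10-12A.

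**Figure D2:**
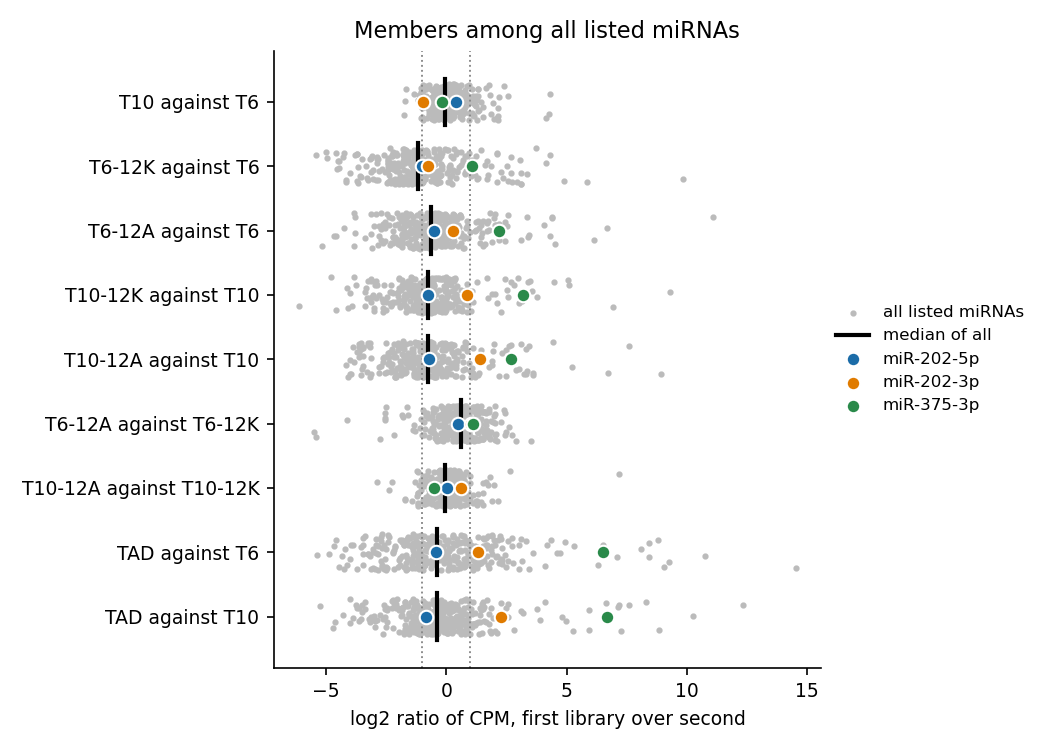
Log2 ratios of CPM for the 3 miRNAs among all 331 listed miRNAs in 9 pairs of libraries. Grey points are single miRNAs, black bars their medians, dotted lines mark 2-fold, and coloured points the 3 miRNAs, of which miR-202-3p at 1.02 is hidden behind miR-375-3p at 1.12 in T6-12A against T6-12K; miR-375-3p lies far to the right in every comparison of TAD.

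The media were compared at each age. The study reported that explants on AlbuMAX I were smaller and often had aberrant nuclei, and its cytology rests on KSR cultures only. The state of the tissue therefore differed along with the medium. At 6.5 dpp, levels with AlbuMAX I were above those with KSR for all 3 miRNAs, with log2 ratios of 0.48 (0.35 to 0.60) for miR-202-5p, 1.02 (0.62 to 1.41) for miR-202-3p and 1.12 (1.04 to 1.19) for miR-375-3p. The last 2 passed 2-fold, as did 26.6% of all miRNAs, whose median was 0.62. With median-of-ratios scaling, where that median was 0.06, they were at 0.46 and 0.56 and did not pass. At 10.5 dpp none of the 3 differed by 2-fold either way, against 10.9% of all miRNAs. The ratios there were 0.03 (-0.09 to 0.16) for miR-202-5p, 0.59 (0.20 to 0.97) for miR-202-3p and -0.50 (-0.55 to -0.44) for miR-375-3p. The medium with the higher level of miR-375-3p was therefore AlbuMAX I at 6.5 dpp and KSR at 10.5 dpp.

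Adult testis was the study's control for the complete process. Against the mean of T6 and T10, miR-375-3p was higher in TAD by 6.60 on the log2 scale (6.53 to 6.66), a fold of 96.7, and 10 miRNAs had a larger ratio. miR-202-3p was higher by 1.73 (1.30 to 2.16), with 34 miRNAs above it, and miR-202-5p was lower, at -0.65 (-0.85 to -0.45), near the median of all miRNAs of -0.41. Both miR-202-3p and miR-375-3p were at least 2-fold above T6 and T10 in TAD, as were 16.6% of all miRNAs. With the values as deposited, miR-202-3p was at 0.67 against T6 and did not pass 2-fold, while miR-375-3p did. In reads not adjusted for depth, the ratio of miR-202-3p to the mean of T6 and T10 was -1.31 and that of miR-375-3p 3.56, but the median of all miRNAs was then -3.45, so both still lay above it.

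Against the cultured libraries, miR-375-3p in TAD was higher by log2 ratios of 5.42, 4.31, 3.53 and 4.03 for T6-12K, T6-12A, T10-12K and T10-12A. It was the only one of the 3 that was at least 2-fold above all 4 cultures, and 22.7% of all miRNAs were. In CPM it was also the only one with every culture above T6 and T10 and below TAD, an order found for 4.83% of all miRNAs. With median-of-ratios and the trimmed mean of M-values miR-202-3p had this order too, as had 7.55% and 8.16% of all miRNAs. miR-202-5p in TAD lay within 2-fold of every culture, with ratios from -0.12 to 0.57 in CPM. miR-202-3p in TAD was higher than in each culture, from 0.86 against T10-12A to 2.08 against T6-12K.

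**Figure D3:**
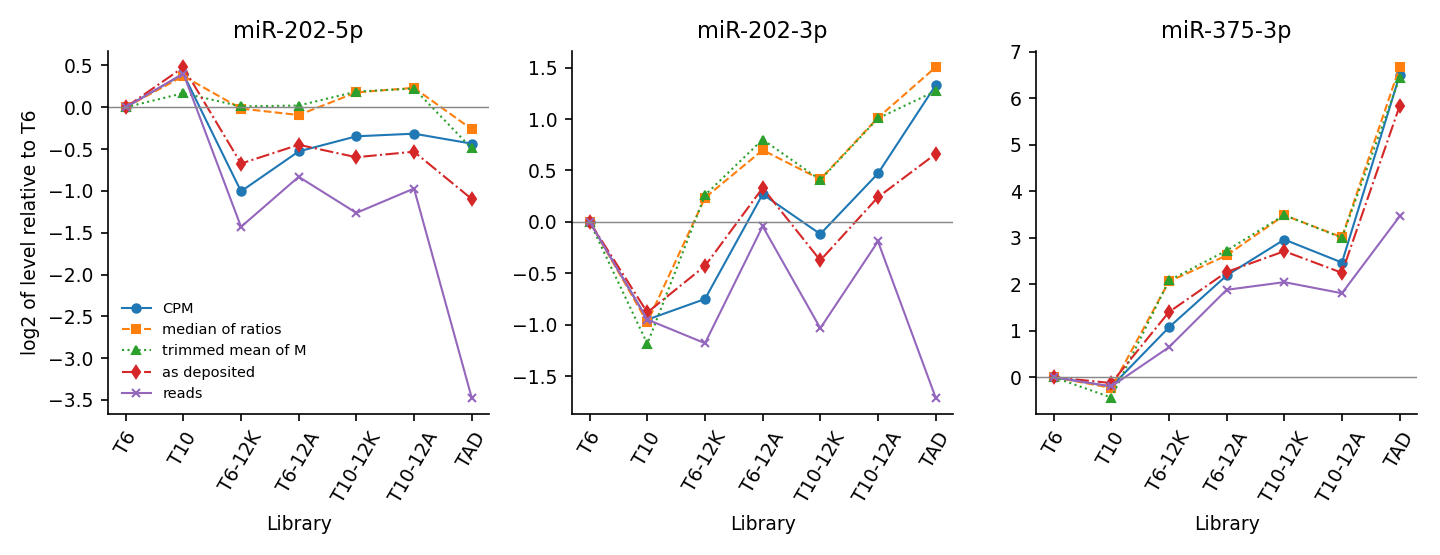
Log2 level relative to T6 of each miRNA over the 7 libraries under CPM and the other 4 ways of scaling. The direction of miR-375-3p in TAD is upwards on every scale, from 3.46 to 6.67, whereas miR-202-3p in TAD is above T6 on the other scales and below it, at -1.71, in reads.

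The ratio of the miR-202 arms does not depend on the scaling between libraries, since both arms come from the same library. There were 13.6 reads of miR-202-5p for each read of miR-202-3p in T6 (11.6 to 15.9) and 34.7 in T10 (28.0 to 42.8). With KSR the ratio was 11.4 (9.01 to 14.5) in T6-12K and 11.6 (9.25 to 14.5) in T10-12K. With AlbuMAX I it was 7.85 (6.68 to 9.24) in T6-12A and 7.89 (6.66 to 9.36) in T10-12A. In TAD it was 4.0 (2.95 to 5.42). The 5p arm was the major one everywhere, with 80.0% of the miR-202 reads in TAD and 88.7% to 97.2% in the other libraries. T10 was high and TAD low, and neither interval overlapped that of another library.

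The libraries cultured with the same supplement had nearly the same arm ratio whatever the starting age. Between ages the log2 ratio of ratios was 0.02 (-0.45 to 0.49) with KSR and 0.01 (-0.33 to 0.35) with AlbuMAX I, and these intervals leave room for differences of that width. Between supplements it was -0.54 (-0.95 to -0.13) at 6.5 dpp and -0.55 (-0.96 to -0.15) at 10.5 dpp, lower with AlbuMAX I. Among the 54 hairpins with both arms listed and at least 50 reads in every library, 25.9% also had the higher 5p to 3p ratio with KSR at both ages. With 1 library for each condition, a difference between the supplements and one between the single cultures cannot be told apart.

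The arm ratio of miR-202 was higher in T10 than in T6 by 1.35 on the log2 scale (0.97 to 1.73), and 3 of the 54 hairpins, miR-202 included, differed at least as far in either direction. In TAD it was below T6 by a log2 difference of -1.76 (-2.25 to -1.27) and below T10 by -3.12 (-3.65 to -2.58). TAD was at least 2-fold below both T6 and T10 for miR-202 and for 14.8% of the 54 hairpins. Of these 8 hairpins, 5 had an arm listed at 0 in TAD, whose ratio there was set from the lowest number of reads listed. Besides miR-202, miR-106b and miR-27a were so far below with both arms read in TAD, at -1.52 and -1.01 against the lower of T6 and T10. Their lowest reads on an arm were 16 and 6. Among the 16 hairpins with at least 50 reads on each arm in every library, miR-202 was the only 1 so far below. That minimum left out miR-106b and miR-27a, and miR-202 met it with 52 reads of the 3p arm in TAD. In every culture the ratio was below both T6 and T10 for miR-202 and for 20.4% of the 54 hairpins. Against T6 the log2 change was -0.25 (-0.66 to 0.16) in T6-12K, an interval that includes no change. It was -0.79 (-1.11 to -0.46) in T6-12A. Against T10 it was -1.58 (-2.03 to -1.14) in T10-12K and -2.13 (-2.53 to -1.74) in T10-12A. The counting interval of the ratio in T10-12K overlapped that in T6. Summed over both arms, miR-202 was at 185 CPM in T6 and 234 CPM in T10, at 93.7 and 148 CPM in the KSR cultures of these ages, at 135 and 157 CPM in the AlbuMAX I cultures and at 160 CPM in TAD, a narrower range than that of the ratio.

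**Figure D4:**
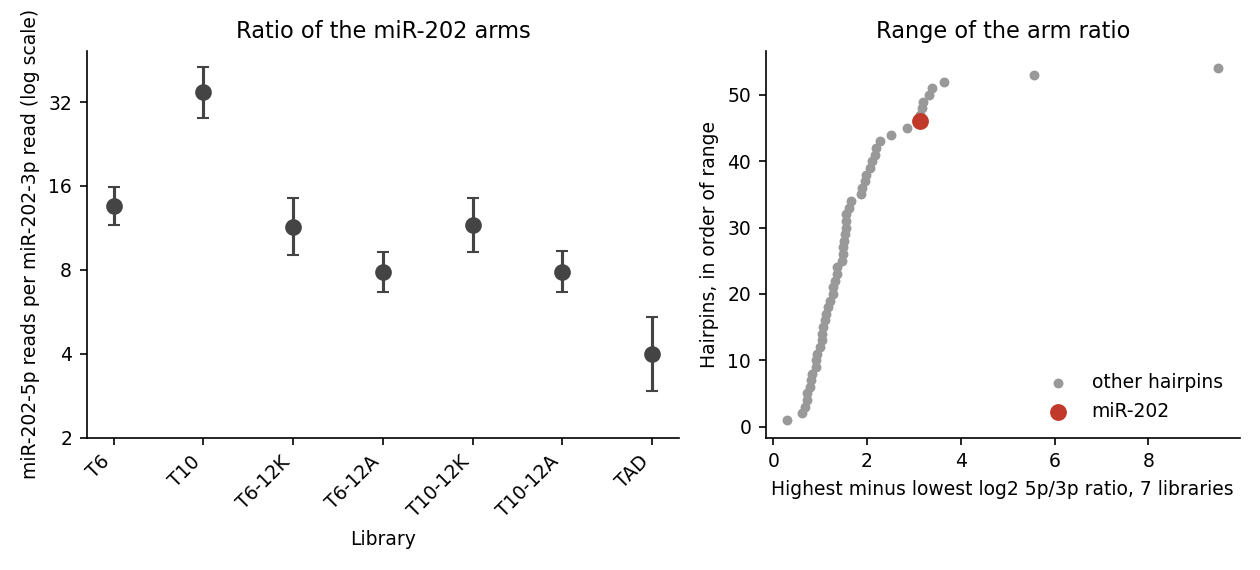
Left, reads of miR-202-5p for each read of miR-202-3p in the 7 libraries on a log scale, with 95% counting intervals: 34.7 in T10 is highest and 4.0 in TAD lowest. Right, the highest minus the lowest log2 arm ratio over the libraries for the 54 hairpins in rising order, where miR-202 at 3.12 has the place 9 from the top.

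Over the 7 libraries the arm ratio of miR-202 ranged by 3.12 on the log2 scale, or 8.66-fold, against a median of 1.50 over the 54 hairpins, among which it ranked 9. Without T10 its range was 1.76 and its rank 20, and without TAD they were 2.14 and 9, so both libraries widened the range. Among the 16 hairpins with 50 reads on each arm it ranked 2, after miR-423 with 3.32. The widest range of the 54 was that of miR-465b, 9.49, whose 5p arm was listed at 0 in 5 libraries and read at 102 CPM in T10-12A, and whose reads can be shared with near-identical copies of the miR-465 family. The narrowest were 0.30 for miR-30a, 0.61 for miR-743b and 0.67 for miR-148a. Of the hairpins nearest to miR-202 in mean reads besides miR-465b, miR-465a ranged by 0.92 and miR-126a by 0.78. The major arm was 5p in every library for 28 of the 54 hairpins, miR-202 among them, and 3p for 21, and it changed for 5.

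A further listed miRNA, miR-7686-3p, comes from a hairpin 67 bp from Mir202 in the same exon of Gm2044, and it was added after its values had been seen. Its RefSeq sequence is shown, with the seed in capitals, because it shares the transcript of miR-202.
miR-7686-3p: cUGCUCGGggcacuguaagaga

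It had 104 reads in T6, 33 reads in T10 and 17 to 27 reads in the cultured libraries, and was listed at 0 in TAD. The levels were 7.78 CPM in T6 and 2.32 to 2.60 CPM in T10 and the cultured libraries. T6 was thus the highest library for this miRNA, while T10 was highest for miR-202-5p. The lowest value listed in TAD was worth 3.07 CPM, so a level like that of the cultures was not detectable there.

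Likeness was measured as the correlation of log2 CPM over the 7 libraries with the 119 miRNAs of a mean of at least 100 CPM that were read in every library. These points share the libraries and their depth, and the values are a description. Most like miR-375-3p were miR-191-5p (r = 0.99), miR-34b-5p (r = 0.98) and miR-34c-5p (r = 0.97), and without TAD these were 0.96, 0.95 and 0.95. miR-34b-5p and miR-34c-5p come from a shared precursor transcript that is abundant in meiotic and postmeiotic germ cells. miR-34c-5p was at 59.9 CPM in T6 and 142 CPM in T10, at 514, 1193, 1588 and 1445 CPM in culture and at 20424 CPM in TAD. Like miR-375-3p, it was higher in T10-12K than in T10-12A, but it was also higher in T10 than in T6, where miR-375-3p was slightly lower.

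miR-202-3p was most like miR-191-5p (r = 0.86), miR-375-3p (r = 0.85) and miR-449a-5p (r = 0.83). Without TAD these were 0.65, 0.62 and 0.64, so much of the likeness came from that library. miR-202-5p was most like miR-186-5p (r = 0.93), miR-5099 (r = 0.91) and miR-423-3p (r = 0.91), which were also highest in T6 or T10 and lowest in T6-12K. With median-of-ratios scaling these were 0.70, 0.75 and 0.66. Between the arms of miR-202 the correlation was -0.19, and it was -0.37 between miR-202-5p and miR-375-3p. With median-of-ratios scaling these were -0.67 and -0.61, so their size depended on the scaling.

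**Figure D5:**
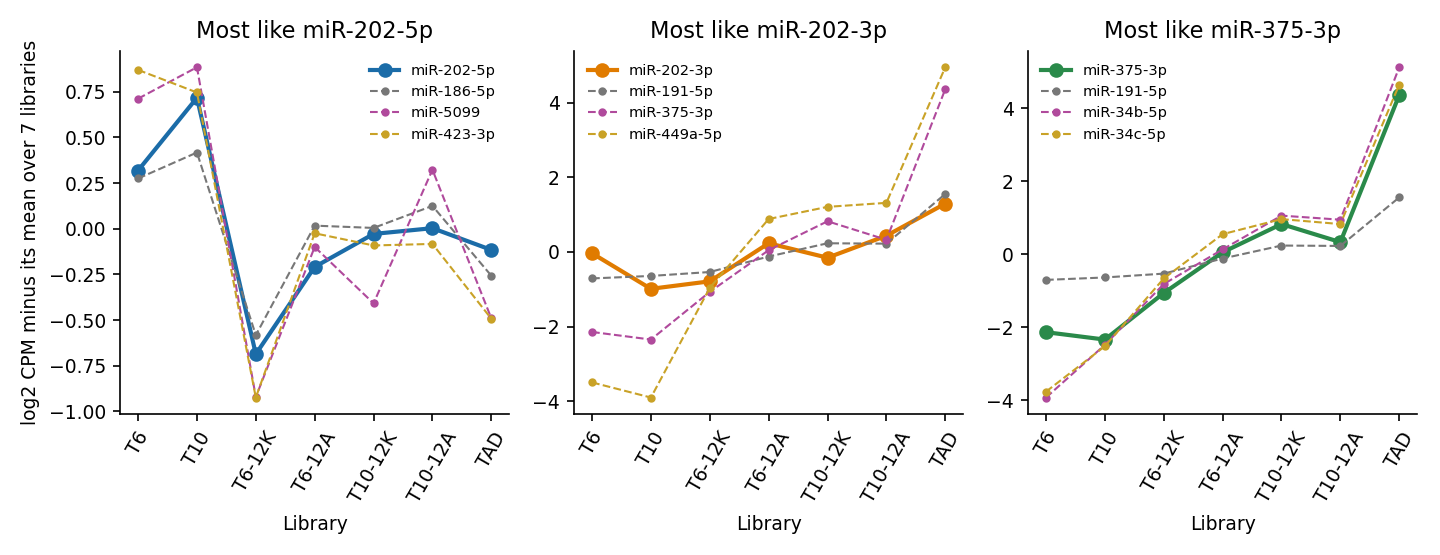
Log2 CPM minus its mean over the 7 libraries for each of the 3 miRNAs, as a thick line, and the 3 miRNAs most like it, as dashed lines. In the panel of miR-375-3p the lines of miR-34b-5p and miR-34c-5p lie below it in T6 and near it in T10 and the cultures. Their r was 0.98 and 0.97, and miR-191-5p (r = 0.99) covers a smaller range.

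The other miRNAs with bases 2 to 7 of miR-202-3p lay on the opposite side in TAD when levels were given in CPM. Of the 10 mature miRNAs listed for the let-7 family, which is known to restrain growth genes and is made by many cell types, 9 were measured. All 9 were lower in TAD than in the mean of T6 and T10 on each of the 5 scales, 5 of them by 2-fold or more in CPM, with a median log2 ratio of -1.14. Over all listed miRNAs the median in CPM was -0.41, 36.3% were at least 2-fold lower and 20.8% at least 2-fold higher. In reads, not adjusted for depth, that median was -3.45 and miR-202-3p was lower in TAD too, at -1.31. Being lower on that scale thus does not set the let-7 family apart. The most abundant, let-7f-5p, was at 88240 CPM in T6, 45639 CPM in T10 and 40872 CPM in TAD. The ratios ran from -2.05 for let-7e-5p to -0.27 for let-7g-5p. The level of miR-202-3p, at most 31.9 CPM, was far below that of let-7a-5p, which was 7567 CPM or more in every library, and reads of different miRNAs can be recovered with unequal efficiency.

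Of 17 miRNAs of islet and neuroendocrine cells, besides miR-375-3p, 7 were measured. In TAD, 3 were at least 2-fold higher than in the mean of T6 and T10 and 1 was lower, with a median of 0.77. Of all listed miRNAs, 20.8% were at least 2-fold higher and 36.3% at least 2-fold lower. miR-184-3p, which is abundant in islets and in the eye, had the highest ratio, 4.85, from 11.9 CPM in T6 and 9.85 CPM in T10 to 314 CPM in TAD. miR-335-5p had the lowest, -2.71. miR-182-5p, the most abundant and known from sensory epithelia, was at 10939, 9839 and 13788 CPM in T6, T10 and TAD. miR-375-3p, with 6.60, was above each of these 7.

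Germ-line lists gave the following values in TAD against the mean of T6 and T10. In that comparison 20.8% of all listed miRNAs were at least 2-fold higher and 36.3% at least 2-fold lower. Among miR-34 and miR-449 miRNAs, 7 of 7 measured were at least 2-fold higher, with a median log2 ratio of 7.66 and the highest, 8.62, for miR-449a-5p. In the X-linked testis cluster 8 of 16 were at least 2-fold higher and none as much lower, with a median of 1.03, and miR-465b-5p was listed at 0 in TAD. Of the miRNAs described in spermatogonia, 7 were measured and 3 were at least 2-fold higher, with a median of 0.94, miR-146a-5p having the highest ratio, 1.95, and miR-222-3p the lowest, 0.46. The summed level of that list was 8465 to 15043 CPM in culture, against 2990 and 3954 CPM in T6 and T10 and 5558 CPM in TAD. It was carried by miR-21a-5p and miR-146b-5p, whereas miR-20a-5p and miR-295-3p were lower in every culture than in T6 and T10, at 8.35 to 22.5 CPM against 27.5 and 31.9 CPM, and at 3.42 to 5.28 CPM against 16.8 and 8.21 CPM. Both miR-140 arms, known from the fetal gonad, were measured, and their median was -0.75. miR-140-5p was listed at 0 in TAD, so its ratio of -1.16 was set from the lowest number of reads listed there.

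Lists of miRNAs from other cells that a testis can hold were summed beside the members. The 6 measured of 7 epithelial miRNAs had a summed level of 178 CPM in T6, 385 CPM in T10, 356 to 580 CPM in culture and 582 CPM in TAD. Against the mean of T6 and T10, 3 were at least 2-fold higher in TAD and 1 was lower, and miR-205-5p was at 0 there. The shares of all listed miRNAs were 20.8% higher and 36.3% lower. The endothelial miR-126a arms summed to 190 and 181 CPM in T6 and T10, 124 to 249 CPM in culture and 405 CPM in TAD. The 2 measured of 5 leukocyte miRNAs summed to 12.2 and 10.8 CPM in T6 and T10, 5.54 to 10.2 CPM in culture and 45.4 CPM in TAD. The endothelial and leukocyte sums were highest in TAD, as were miR-375-3p and miR-202-3p, whereas the epithelial sum of TAD was level with the 580 CPM of T10-12A. The part of these cells in those results was not tested. The 5 erythroid miRNAs summed to 3364 and 2973 CPM in T6 and T10 and to 2216 CPM in TAD. In culture they summed to 5125 CPM in T6-12K and to 887 to 1521 CPM in the others. These sums were carried by miR-486a-5p and miR-486b-5p, at 2554 and 2571 CPM in T6-12K and both at 1103 CPM in TAD. The same reads may have been counted for both. miR-451a, the defining member of the list, was at 0 in every culture. Of 5 striated muscle miRNAs only miR-133a-3p was measured, at 2.60 to 30.4 CPM.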

How the data were processed

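Small RNAs below 100 nucleotides were sequenced at BGI on an Illumina instrument. The authors trimmed adaptors, checked reads with FastQC, aligned them with Bowtie to mm10 and then to miRBase, piRBase and Ensembl non-coding RNAs, and removed miRNAs of few reads. HTSeq and DESeq are named in the submitters' processing notes. For each miRNA and library the authors deposited a scaled signal, and the tables of single libraries were identical to that of the series. Reads on near-identical miRNAs may have been split or shared, and how was not given in the sources used here.

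The design had assumed estimated reads. The worth of 1 read, 0.615 to 3.19 units of the signal, was estimated in each library, and 100% of values up to 10000 reads came out within 0.1 of a whole number. In each of 35 simulated libraries the estimated number of reads was exact for at least 99.7% of the 331 miRNAs. Reads were scaled to CPM. Values at 0 were set to the lowest reads listed in that library, 5 or 7, for log2 ratios. No test was run, since each condition had 1 library. Intervals are at 95%, Wilson for single levels and log-scale Poisson for ratios, and cover counting error only.

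The members and lists were chosen with earlier results of these data known. Named besides the members were the 3 miRNAs most like each, the most abundant, highest and lowest of each list, miRNAs sharing a seed, and hairpins nearest in reads or with the widest and narrowest arm ratio range. A few others were chosen with their values in view. Alternatives were median-of-ratios, TMM (the trimmed mean of M-values, leaving out 30% by M and 5% by A), the values as deposited, a pseudocount of 1 CPM, 10 reads added to each arm, Spearman correlation, other read minimums, and leaving out T6-12K or TAD. Direct comparison of reads was chosen after seeing the data. Python 3.11.15, numpy 2.4.6, pandas 2.3.3 and matplotlib 3.10.9 were used, with GENCODE mouse release 21.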

Additional observations from a re-analysis of the deposited data

Results flagged for a closer look

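The KSR cultures differed from their starting testes in opposite directions for miR-202-3p at the 2 ages, with log2 ratios of -0.75 at 6.5 dpp and 0.84 at 10.5 dpp, a difference of -1.59. The difference was not tested, as each condition had 1 library. Of all listed miRNAs, 12.4% also had opposite signs. Both ratios were positive under median-of-ratios scaling, 0.23 and 1.39, and under the trimmed mean of M-values, 0.25 and 1.60.

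For miR-375-3p the supplements had opposite order at the 2 ages, with AlbuMAX I against KSR giving 1.12 at 6.5 dpp and -0.50 at 10.5 dpp, a difference of 1.61 that was not tested either. Opposite signs were found for 47.4% of all miRNAs in CPM and for 31.4% to 45.6% under the other scales, and the signs of miR-375-3p were the same under each.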

How the results depend on the processing

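The labels give no replicate numbers, so no replicate block was fitted. Each culture was set against the uncultured library of its starting age, and a joint model of age and treatment over the prepuberal and cultured libraries was not run, since the members were chosen on these values. Of 225 values of single members in pairwise comparisons under the alternatives, 196 had the sign of the value in CPM and 29 the other. The cause of each change below was not tested. For TAD against the mean of T6 and T10, miR-202-5p was at -1.35 with the deposited values and -3.69 in reads, miR-202-3p at 1.04 and -1.31, and miR-375-3p at 6.78 with median-of-ratios, 5.90 with the deposited values and 3.56 in reads. In reads, a comparison chosen after seeing the data, miR-202-3p in TAD was at -1.71 against T6, -0.76 against T10, -0.53 against T6-12K, -1.67 against T6-12A and -0.67 against T10-12K. miR-202-5p in T6-12K against T6 was at 0.01 with the trimmed mean of M-values.

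Counts of the 3 miRNAs past 2-fold changed as follows, with the share of all listed miRNAs under the same alternative in brackets. In T10 against T6, 1 passed with the trimmed mean of M-values (15.7%). In T6-12K against T6, 0 were higher in reads (8.46%). Lower were 0 with median-of-ratios (23.6%), the trimmed mean of M-values (23.6%), the deposited values (45.6%) or a pseudocount (54.4%), and 2 in reads (67.4%). In T10-12K against T10, 2 were higher with median-of-ratios (14.2%) and the trimmed mean of M-values (18.4%). In T10-12A against T10, 1 was higher in reads (8.16%). In T6-12A against T6-12K, 0 were higher with median-of-ratios (10.9%), the trimmed mean of M-values (13.0%) or the deposited values (19.3%). With the pseudocount 1 was higher (22.7%). In TAD above both T6 and T10, 1 passed with the deposited values (8.76%) and 1 in reads (4.83%). With median-of-ratios and the trimmed mean of M-values, 2 had every culture between the prepuberal testes and TAD (7.55% and 8.16%). With these scalings 0 had every culture below T6 and T10 (27.8% and 21.1%).

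The miR-202 arm ratios with 10 reads added to each arm stayed within their counting intervals. Of the 3 miRNAs most like each, leaving out T6-12K or TAD kept 0 to 2 for miR-202-5p, 1 to 3 for miR-202-3p and 1 to 3 for miR-375-3p, the lowest without TAD, and Spearman correlation kept 0 for miR-202-3p. Depth limits miR-202-3p most, with 52 reads in TAD.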
